A study of Mus musculus with 12 samples.

Results

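The genes described here encode the proteins of 2 kinds of epithelial cell contact, the adherens junction and the desmosome. They are E-cadherin (Cdh1), P-cadherin (Cdh3), alpha-catenin (Ctnna1), beta-catenin (Ctnnb1), p120-catenin (Ctnnd1), plakoglobin (Jup), desmoplakin (Dsp), desmoglein 2 (Dsg2), desmocollin 2 (Dsc2) and plakophilin 2 (Pkp2). All probe sets that the array's annotation gives to exactly 1 of these symbols were taken, which made 29 probe sets for 10 of the 18193 genes it names. The set was chosen by earlier results on these same intensities, namely the difference between genotypes with and without a lymphocyte covariate. RNA from primary mammary epithelium of female FVB/N mice was hybridised to single-colour Affymetrix arrays. The p190B group, 6 arrays, carried MMTV-rtTA, which places a doxycycline-dependent activator under a promoter active in mammary epithelium, and TetO-p190B-IRES-luciferase, which responds to it. The control group, 6 arrays, carried MMTV-rtTA alone. Doxycycline was in the chow of both groups (2 g/kg) for 7 days, starting at 5 weeks of age, so both had activator and drug, and the mice were 6 weeks old at cell isolation. Each array is labelled as a biological replicate.

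Adherens junctions join neighbouring epithelial cells through classical cadherins, whose cytoplasmic tails bind beta-catenin or plakoglobin, and alpha-catenin ties this complex to actin. p120-catenin binds the tail nearer the membrane and keeps the cadherin at the cell surface. The transgene's product, p190B, is a GTPase-activating protein encoded by Arhgap5. Desmosomes join cells through desmogleins and desmocollins, which plakoglobin, plakophilins and desmoplakin anchor to keratin filaments. In the mammary gland E-cadherin is best known from luminal cells and P-cadherin from the basal, myoepithelial layer.

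The preparations held other cells besides epithelium, and lymphocyte content varied widely. All 5 luminal markers (Krt8, Krt18, Krt19, Epcam, Cd24a) and all 5 basal markers (Krt5, Krt14, Krt17, Acta2, Trp63) lay above the level used to leave out dim probe sets, as did the 4 macrophage, 4 fibroblast and 3 endothelial markers. The summed intensity of the luminal markers ran from 182506 to 199133 in p190B cells and from 171717 to 204802 in control cells, and that of the 4 T and NK markers from 273 to 6187 in p190B cells and from 541 to 5444 in control cells. The lymphocyte level, the mean log2 value of Cd3d (T cells) and Ms4a1 (B cells), ran from 5.63 to 11.31 in p190B cells and from 7.00 to 11.40 in control cells. The log2 ratio of the 3′ to the 5′ control probe set of Actb, a measure of RNA quality, was 0.40 ± 0.11 in p190B cells and 0.29 ± 0.03 in control cells, and that of Gapdh was -0.40 ± 0.06 in p190B cells and -0.49 ± 0.02 in control cells (SD, n = 6 each). Arhgap5 gave log2 differences of 0.41, -0.32, -0.14 and 0.10 by its 4 probe sets, none of which passed the limma test over all probe sets. The brightest was that at -0.14, with 1 p190B array above and 3 below every control array. The 0.41 came from a dimmer probe set, with 3 p190B arrays above every control array.

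Promoters of 3 of these genes are shown beside the slopes described further on. Desmoplakin and p120-catenin each had a probe set whose signal fell where lymphocyte signal was high, and no beta-catenin probe set passed, though the difference between slopes was not tested. RefSeq's table for GRCm38.p6 held promoters for 4 of the 10 genes (Ctnnb1, Ctnnd1, Dsp and Jup), 6 entries in all, each with 250 bases before and 50 after the transcription start. Capitals mark matches on either strand to CAGGTG, the E-box that Snail and Zeb repressors bind, and to CCAAT. The Dsp promoter is chr13:38151044-38151343 on the plus strand. That of Ctnnd1, 1 of its 2 entries, is chr2:84658928-84659227 on the minus strand, and that of Ctnnb1, 1 of its 2 entries, is chr9:120933150-120933449 on the plus strand.
Dsp: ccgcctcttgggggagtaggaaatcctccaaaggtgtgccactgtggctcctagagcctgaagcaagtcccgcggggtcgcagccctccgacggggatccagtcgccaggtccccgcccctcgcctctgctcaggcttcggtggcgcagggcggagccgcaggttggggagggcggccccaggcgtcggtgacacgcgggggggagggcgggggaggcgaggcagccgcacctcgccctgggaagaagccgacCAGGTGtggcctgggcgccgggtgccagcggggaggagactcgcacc
Ctnnd1: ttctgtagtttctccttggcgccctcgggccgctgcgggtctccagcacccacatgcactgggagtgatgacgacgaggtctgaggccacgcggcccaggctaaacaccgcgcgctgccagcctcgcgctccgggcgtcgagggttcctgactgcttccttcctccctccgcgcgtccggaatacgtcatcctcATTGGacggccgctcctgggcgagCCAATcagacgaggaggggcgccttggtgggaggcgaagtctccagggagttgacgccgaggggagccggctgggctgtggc
Ctnnb1: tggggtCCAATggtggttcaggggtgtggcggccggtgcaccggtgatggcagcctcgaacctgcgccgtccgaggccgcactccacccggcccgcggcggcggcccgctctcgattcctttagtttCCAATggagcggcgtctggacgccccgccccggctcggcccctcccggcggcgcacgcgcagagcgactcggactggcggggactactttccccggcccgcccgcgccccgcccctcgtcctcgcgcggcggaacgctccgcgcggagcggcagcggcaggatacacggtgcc
The Dsp window held 1 E-box match, 3 bases after the transcription start, and no CCAAT match. The Ctnnd1 window held no E-box match and 2 CCAAT matches, 56 and 32 bases before the start. The Ctnnb1 window likewise held no E-box match and 2 CCAAT matches, 244 and 123 bases before the start. The Ctnnb1 entry not printed held no match to either. The Ctnnd1 entry not printed held no E-box match and 2 CCAAT matches. Of all 32851 promoters in the table, 20.2% held CAGGTG and 37.4% held CCAAT. These matches describe the letters in the window and are not measured binding sites.

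E-cadherin, the main cadherin of luminal cells, had lower signal in p190B cells. Its single probe set ran from 8227 to 12549 with a median of 9375 in p190B cells, and from 10297 to 17045 with a median of 14338 in control cells (intensity units). The 4 lowest p190B arrays lay below every control array, while p190B replicates 1 and 3 lay within the control range. The means were 9965 ± 1636 in p190B cells and 13968 ± 2539 in control cells (SD, n = 6 each), and the log2 difference was -0.48 (SE 0.13). The gene was chosen with that contrast known, so the difference is a description without a test. It was -0.50 (SE 0.08) with the lymphocyte level as a covariate, -0.66 when the Actb ratio was used in its place and -0.60 when that of Gapdh was. With the balance of basal to luminal keratins, defined further on, as the covariate it was -0.38 (SE 0.13), the smallest difference in any setting tried. Leaving out each array in turn gave -0.56 to -0.42. In bulk RNA, fewer cells of a type and less RNA per cell cannot be told apart.

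P-cadherin, the cadherin of the basal layer, was dim and varied widely within each genotype. Its brighter probe set ran from 144 to 416 with a median of 304 in p190B cells, and from 48.9 to 428 with a median of 278 in control cells, so the groups overlapped. The log2 difference was 0.25 (SE 0.39), and -0.13 without control replicate 4, the lowest array. The other Cdh3 probe set ran from 26.5 to 95.3 in p190B cells and from 29.9 to 71.4 in control cells, below the filter on dim probe sets. A fold on the log2(value + 16) scale understates the change of dim genes.

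Beta-catenin, which binds the cadherin tail and also carries Wnt signals, gave both signs by its probe sets. The brightest ran from 30562 to 34066 with a median of 33076 in p190B cells, and from 28508 to 32699 with a median of 30022 in control cells. The 3 highest p190B arrays lay above every control array, and the log2 difference was 0.11 (SE 0.05). With arrays scaled to equal luminal epithelial markers it was 0.01. The next brightest gave -0.12 (SE 0.07) and the dimmest 0.09 (SE 0.06).

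Alpha-catenin, the actin link, was read by 3 tested probe sets. The brightest ran from 19360.4 to 22355 with a median of 20013 in p190B cells, and from 18959 to 23204 with a median of 21889 in control cells, a log2 difference of -0.08 (SE 0.06) with p190B arrays inside the control range. The next gave 0.08 (SE 0.06), with 3 p190B arrays above every control array, and the dimmest tested gave -0.05 (SE 0.16). Another Ctnna1 probe set was too dim to test, with a highest value of 40.9 in p190B cells and 31.2 in control cells.

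p120-catenin, which holds cadherins at the surface, also gave both signs. The brightest probe set ran from 3506 to 5625 with a median of 4216 in p190B cells, and from 3707 to 4734 with a median of 4009 in control cells. The p190B arrays lay on both sides, 2 above and 2 below every control array, and the log2 difference was 0.05 (SE 0.11). The next gave -0.25 (SE 0.14), with 3 p190B arrays below every control array, and the dimmest -0.33 (SE 0.16). Plakoglobin, the catenin shared by both kinds of junction, ran from 2361 to 3316 with a median of 2811 in p190B cells, and from 2482 to 3045 with a median of 2783 in control cells. Its log2 difference was 0.02 (SE 0.08), smaller than the spread between arrays.

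Desmoplakin, the link to keratin filaments, was read by 3 probe sets. The brightest ran from 7429 to 11243 with a median of 8594 in p190B cells, and from 7362 to 11498 with a median of 10437 in control cells, a log2 difference of -0.16 (SE 0.12) with overlapping groups. Without control replicate 4, the lowest control array, the difference was -0.25. The next ran from 2870.3 to 4417 with a median of 3427 in p190B cells, and from 3493 to 5228 with a median of 4726 in control cells, with 3 p190B arrays below every control array and a log2 difference of -0.35 (SE 0.12). The dimmest gave -0.01 (SE 0.15).

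Desmoglein 2, a desmosomal cadherin of simple epithelia, was read by 6 probe sets with log2 differences from -0.26 to 0.05. The brightest ran from 10354 to 11420.5 with a median of 10776 in p190B cells, and from 10653 to 14841 with a median of 13838 in control cells, a difference of -0.26 (SE 0.08). Control replicates 4 and 5 lay within the p190B range there and the other 4 controls above it. The next brightest gave -0.01 (SE 0.12).

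Desmocollin 2, its partner cadherin, ran from 1229 to 1615 with a median of 1397 in p190B cells, and from 1198 to 1692 with a median of 1364 in control cells by its brighter probe set, a log2 difference of 0.03 (SE 0.09). Plakophilin 2, which clusters desmosomal cadherins, ran from 2581 to 3599.5 with a median of 2952 in p190B cells, and from 2226 to 4069 with a median of 3035 in control cells by its brightest. Its log2 difference was -0.04 (SE 0.13), and the dimmer tested probe sets gave 0.17 (SE 0.14) and 0.20 (SE 0.19). Another Pkp2 probe set was too dim to test. For both genes the p190B arrays of the brightest probe set lay inside the control range.

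**Figure D1:**
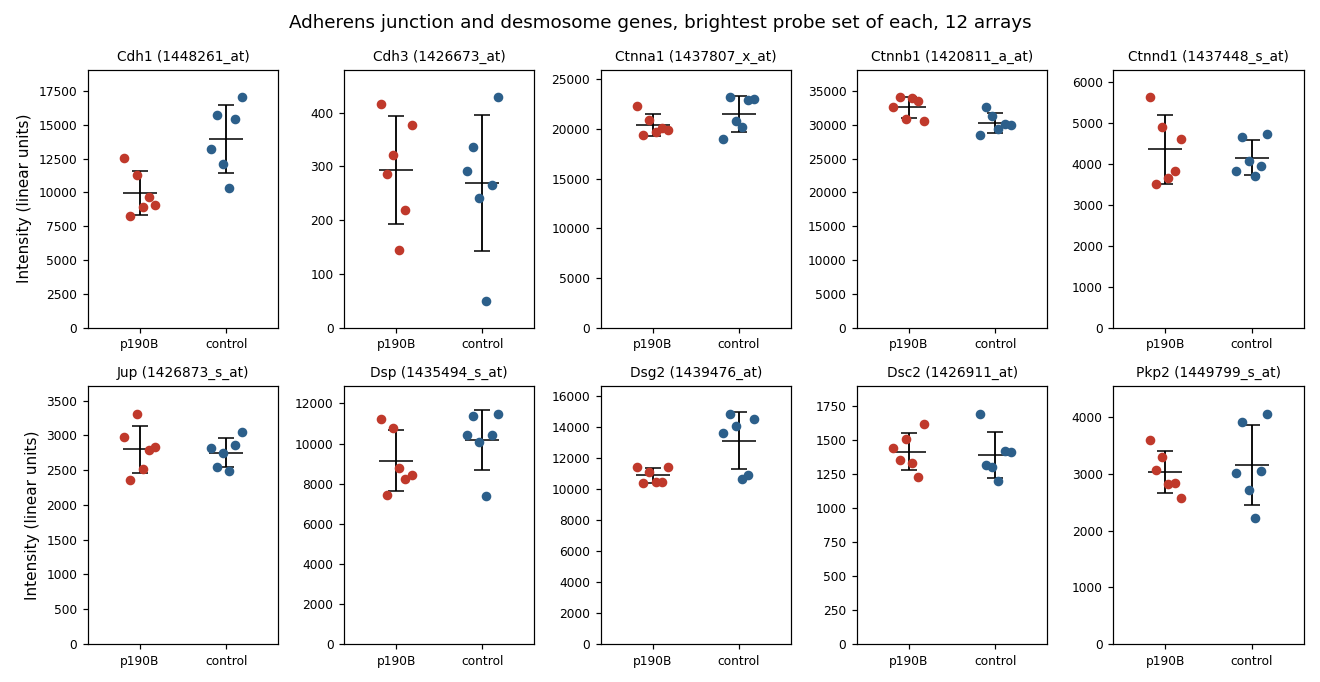
Intensity (linear units, from 0) of the brightest probe set of each of the 10 genes, 1 point per array, p190B left and control right, with bars for the mean and SD (n = 6 each). For Cdh1 the p190B median is 9375 against 14338 in control, while the groups overlap widely for Jup, Dsc2, Pkp2 and Cdh3.

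Over the whole set, 26 of the 29 probe sets were bright enough to test, and 0 of the 26 passed a limma adjusted p of 0.05 between genotypes (4 at an unadjusted p under 0.05). Over all 27022 tested probe sets, 10 passed (0.037%) and 2518 had an unadjusted p under 0.05. None of the 26 separated the genotypes without overlap, where 0.877% of all tested probe sets did. The median log2 difference was -0.02 over the 26 and 0.02 over all. Of 7 genes with several tested probe sets, 6 had differences of both signs. With the lymphocyte level as a covariate 1 of the 26 passed, that of Cdh1, where 0.122% of all did. Both contrasts were known when the genes were chosen, so these counts are a description.

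**Figure D2:**
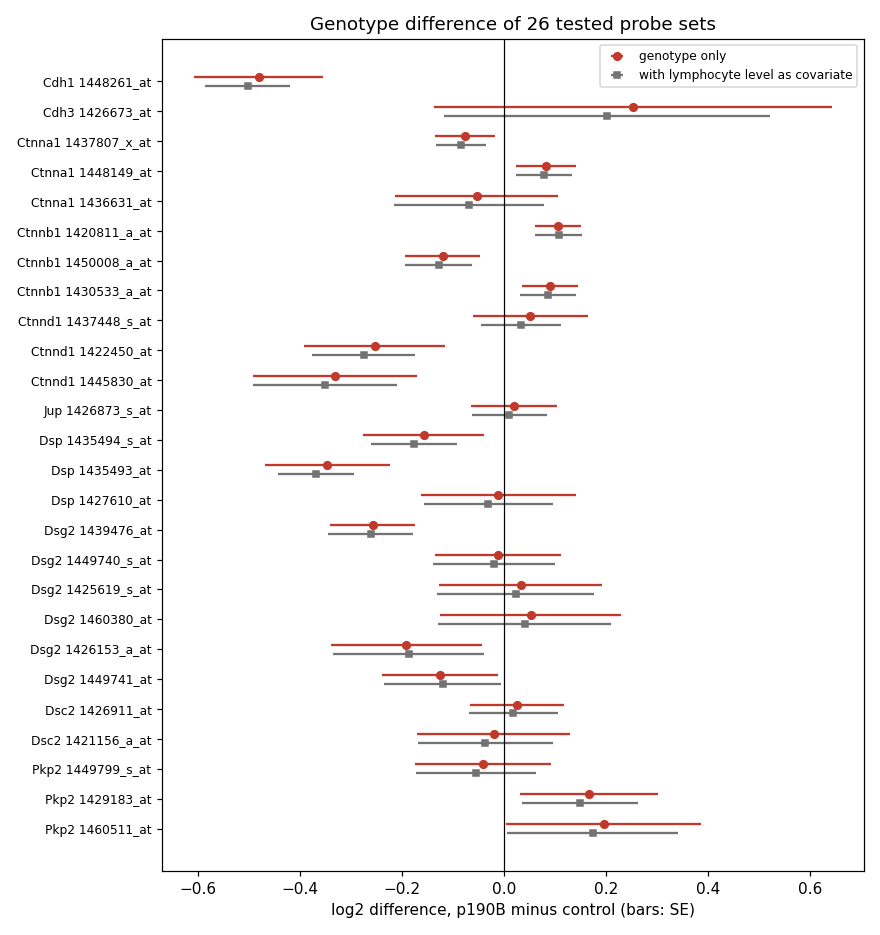
Log2 difference, p190B minus control, of the 26 tested probe sets (points, bars SE), from the genotype fit (circles) and with the lymphocyte level as a covariate (squares). Cdh1 lies at -0.48 and -0.50, the 3 Ctnnb1 probe sets lie on both sides of 0, and the dim Cdh3 has the widest bar.

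Between preparations, E-cadherin, p120-catenin and desmoplakin signal fell as lymphocyte signal rose. This slope, fitted with genotype in the model, is another contrast than the genotype one, on the same arrays. It is the other coefficient of the fit that gave the genotype difference with the lymphocyte covariate. That difference was known when the genes were chosen, so these tests are not apart from the choice. For each log2 unit of lymphocyte level the log2 signal changed by -0.103 (SE 0.0235) for Cdh1 (limma adjusted p = 0.0232), by -0.105 (SE 0.0211) for the second brightest Dsp probe set (limma adjusted p = 0.00940) and by -0.0887 (SE 0.0223) for the brightest Ctnnd1 probe set (limma adjusted p = 0.0405). The other Dsp probe sets gave -0.0909 (SE 0.0238) and -0.0946 (SE 0.0355), and the other Ctnnd1 probe sets -0.103 (SE 0.0286) and -0.0928 (SE 0.0396), none of which passed.

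These were all the junction probe sets that passed, 3 of 26, where 0.637% of all tested probe sets passed with a negative slope and 2.98% with a positive one. The slope was negative for 23 of the 26 and for 53.0% of all tested probe sets, and its median was -0.0628 over the 26 and -0.00374 over all. Probe sets of 1 gene share their transcript, so the 23 are not independent. The Cdh1 slope was -0.0907 (SE 0.0225) within the p190B arrays and -0.129 (SE 0.0599) within the control arrays (n = 6 each). That of the Dsp probe set was -0.103 (SE 0.0208) within p190B and -0.109 (SE 0.0465) within control. That of the Ctnnd1 probe set was -0.118 (SE 0.00930) within p190B and -0.0261 (SE 0.0457) within control, a difference that was not tested. These slopes within 1 genotype are ordinary least-squares fits. Their SEs are not moderated by limma and do not compare directly with those above.

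The call of the second brightest Dsp probe set held in all 12 fits that left out 1 array, that of Cdh1 in 8 and that of Ctnnd1 in 2. This Dsp probe set was followed after its values were seen. The brightest Dsp probe set did not pass in the main fit (limma adjusted p = 0.0505) and passed in 3 of the 12. Cdh1 did not pass without p190B replicate 1, 2 or 3 or control replicate 4, with limma adjusted p of 0.143, 0.0659, 0.0516 and 0.0678 and slopes from -0.108 to -0.0875. Ctnnd1 passed without control replicate 5 or 6 only. None of the 3 probe sets called in the main fit passed with the Actb ratio as a covariate. Their slopes were then -0.0939 for Cdh1, -0.0967 for the second brightest Dsp probe set and -0.0686 for Ctnnd1. Nor did any pass without p190B replicates 1 and 3 together, which had the highest Actb ratios and the lowest lymphocyte levels of the p190B arrays. The slopes there were -0.102 for Cdh1, -0.103 for the same Dsp probe set and -0.0564 for Ctnnd1.

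**Figure D3:**
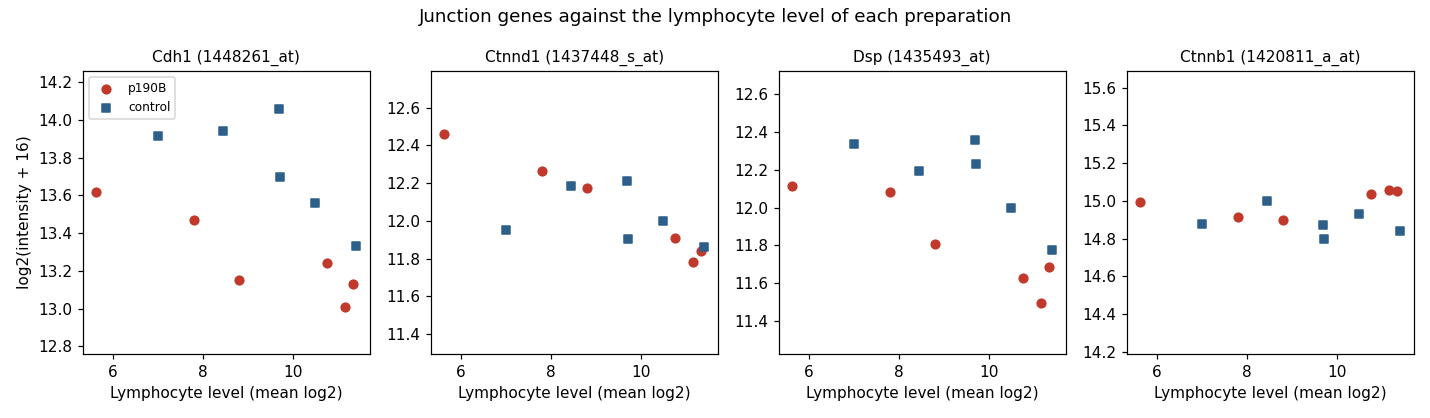
Log2(intensity + 16) against the lymphocyte level (mean log2 of Cd3d and Ms4a1) for 4 probe sets, circles p190B and squares control, 1 point per array, with vertical axes of equal span. Cdh1, Ctnnd1 and the second brightest Dsp probe set are lower at high lymphocyte levels (slopes -0.103, -0.0887 and -0.105), while Ctnnb1 has a slope of 0.00790.

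The other junction genes did not pass on this slope. The slope of Cdh3 was -0.243 (SE 0.0901), and its adjusted p by limma was 0.167. Beta-catenin lay near 0 by its brightest probe set, at 0.00790 (SE 0.0129), and turned negative with quantile normalisation (-0.00857) or equal medians (-0.000414). The other Ctnnb1 probe sets gave -0.0380 (SE 0.0185) and -0.0132 (SE 0.0155). By their brightest probe sets Jup gave -0.0466 (SE 0.0208), Pkp2 -0.0694 (SE 0.0332), Ctnna1 -0.0368 (SE 0.0137), Dsc2 -0.0358 (SE 0.0246) and Dsg2 -0.0163 (SE 0.0236). Dsg2 also held 2 dimmer probe sets with positive slopes, 0.0219 (SE 0.0418) and 0.0239 (SE 0.0321).

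Markers of the epithelial layers give the setting for these slopes. Those of the luminal layer gave 0.00200 (SE 0.0147) for Krt8, 0.0219 (SE 0.0150) for Krt18, 0.00677 (SE 0.0152) for Krt19, -0.0158 (SE 0.0189) for Epcam and 0.000571 (SE 0.0126) for Cd24a. Those of the basal layer gave -0.0655 (SE 0.0315) for Krt5, -0.0724 (SE 0.0349) for Krt14, -0.0460 (SE 0.0368) for Krt17, 0.0108 (SE 0.0145) for Acta2 and -0.0347 (SE 0.0244) for Trp63. None of these 10 passed. The luminal markers and Acta2 were the brighter ones, no lower than 22468.9 units on any array (Epcam). Krt5, Krt14, Krt17 and Trp63, all with negative slopes, were no higher than 14981.3 (Krt14). Whether the slope depends on brightness was not tested. With every array scaled to the same level of Krt8, Krt18, Krt19 and Epcam, the Cdh1 slope was -0.107, and 3 of the 26 junction probe sets passed. These were not the same 3, since Ctnnd1 did not pass there (limma adjusted p = 0.0580) and the brightest Dsp probe set did (limma adjusted p = 0.0203).

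**Figure D4:**
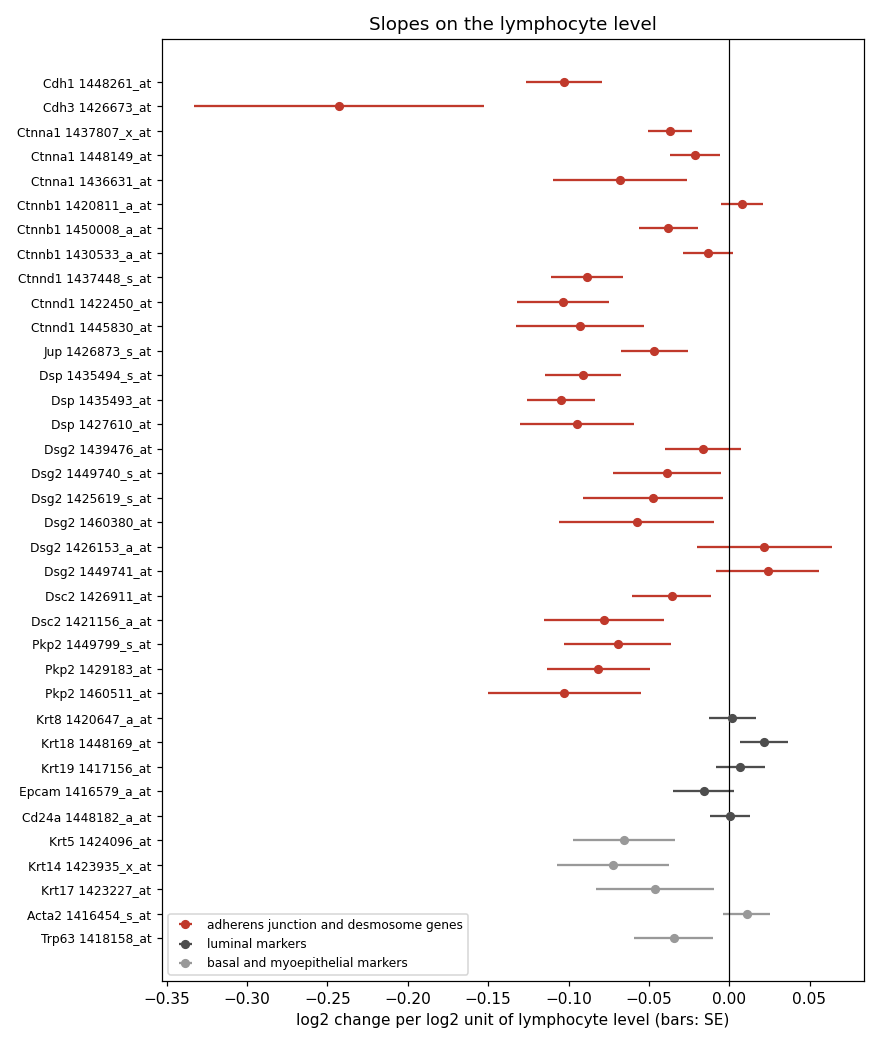
Slope on the lymphocyte level (log2 change per log2 unit, bars SE) of the 26 tested junction probe sets and of 10 luminal and basal markers. The 3 Dsp and 3 Ctnnd1 probe sets lie between -0.105 and -0.0887, the luminal markers between -0.0158 and 0.0219.

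A further slope asked whether the junction genes follow basal or luminal keratins. The keratin balance, the mean log2 value of Krt5, Krt14 and Krt17 minus that of Krt8, Krt18 and Krt19, ran from -3.46 to -2.79 in p190B cells and from -3.26 to -2.91 in control cells. By limma 0 of the 26 junction probe sets passed (10 at an unadjusted p under 0.05), and 0% of all 27022 passed (4011 at an unadjusted p under 0.05). The slope was positive for 25 of the 26 and for 50.9% of all tested probe sets. Keratin balance and lymphocyte level were themselves correlated over the arrays of both genotypes together (r = -0.57). The 25 are thus not independent of the negative slopes on the lymphocyte level, nor of each other where probe sets share a gene. That r was not computed within each genotype. Of all arrays p190B replicate 1 had the lowest lymphocyte level (5.63) and the highest keratin balance (-2.79). Among control arrays replicate 5 was lowest on both (7.00 and -3.26). By their brightest probe sets Cdh3 gave 1.95 (SE 0.887), Ctnnd1 0.789 (SE 0.211), Dsp 0.679 (SE 0.256), Cdh1 0.594 (SE 0.294) and Ctnnb1 -0.0399 (SE 0.120). With the lymphocyte level and the keratin balance in 1 fit, 0 of the 26 passed with a negative slope on the lymphocyte level, where 0.0518% of all tested probe sets did. The slopes on the lymphocyte level in that fit were -0.105 for Cdh1, -0.106 for the second brightest Dsp probe set and -0.0563 for Ctnnd1, and the Cdh1 slope on keratin balance was -0.0357.

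The pattern over arrays was also compared between genes. Likeness was Pearson's r over the 12 arrays after each genotype's mean was subtracted, ranked over all tested probe sets and given as a description. Most like Cdh1 were Arhgef5 (0.961), Rhpn2 (0.959), and Ripk4, a kinase of epidermal differentiation (0.957). Col4a6, a basement membrane collagen chain (0.955), and Echdc3 (0.954) followed. Among the junction genes Dsp stood nearest to Cdh1 (0.918, place 56), then Pkp2 (0.864, place 262) and Ctnna1 (0.814, place 653), and Ctnnb1 had an r of 0.00418.

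For Dsp the genes most alike were Ripk4 (0.967), Ehf, an epithelial ETS transcription factor (0.959), Col9a3, a collagen IX chain (0.949), 9630050P21Rik (0.949) and Bbx (0.943), with Cdh1 at place 25. For Ctnnb1 they were Rps28 and Rpl8, which encode ribosomal proteins (0.979 and 0.915), Mphosph10 (0.954), the actin-severing protein Dstn (0.945) and the translation factor Eif5a (0.931). For Cdh3 they were Chmp4c (0.951), the clathrin heavy chain Cltc (0.931), Rtn3 (0.929), Olfml2a (0.929) and Oas3 (0.928). Spearman's rank correlation for the Cdh3 list ran from 0.720 to 0.909. Genes read on 1 array share its RNA preparation and cell makeup.

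Other genes of the junction pathways, in 4 lists, did not pass between genotypes. By limma 0 of 56 tested genes passed (5 at an unadjusted p under 0.05), each read by its brightest probe set. Of 18 adherens junction partners 5 had a positive difference, with a median of -0.06. Vcl, the actin-binding vinculin, gave -0.05 (SE 0.07), the nectin linker Afdn -0.10 (SE 0.09), Nectin2 -0.01 (SE 0.15), Nectin3 -0.14 (SE 0.11) and the p120 relative Arvcf -0.14 (SE 0.15). Of 8 other genes in the desmosome list, which counts the keratins Krt5 and Krt8, 4 were positive, with a median of 0.01. The plakophilins Pkp1 and Pkp3 gave 0.03 (SE 0.15) and 0.04 (SE 0.14), the plakin Ppl -0.05 (SE 0.17) and the membrane protein Perp 0.05 (SE 0.07).

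Regulators of cadherin genes had a median of 0.02 over 15, 8 of them positive. The E-box repressors Snai2 and Zeb1 gave 0.28 (SE 0.12) and 0.02 (SE 0.10). Their relatives, picked with the values in view, had differences of -0.18 (SE 0.13) for Snai1, -0.18 (SE 0.15) for Snai3 and -0.30 (SE 0.13) for Zeb2, so that both signs occurred among these repressors. Klf4, an epithelial transcription factor picked likewise, gave -0.20 (SE 0.05), with 5 of 6 p190B arrays below every control array. Tcf3, of the same list and also picked, gave 0.19 (SE 0.10), with 4 of 6 p190B arrays above every control array. Neither gene passed between genotypes. The share of all tested probe sets with as many arrays apart was not counted, so these array counts have no background to be read against. The epithelial factors Grhl2 and Ovol1 gave 0.03 (SE 0.14) and 0.06 (SE 0.17). Over 15 genes of the beta-catenin pathway the median was -0.04, with 6 positive, and Axin2, a target of that pathway, gave -0.08 (SE 0.15).

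On the lymphocyte level 5 of these 56 genes passed by limma, where 3.61% of all tested probe sets did. The 3 with negative slopes were Vcl (-0.0568, SE 0.0131), Ajuba, a LIM protein of adherens junctions (-0.110, SE 0.0226) and Pkp1 (-0.128, SE 0.0278). The 2 with positive slopes were Lef1, which T cells also express (0.681, SE 0.0448), and the desmosomal cadherin Dsc3 (0.306, SE 0.0507). Their limma adjusted p ran from 1.74e-07 for Lef1 to 0.0247 for Vcl.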

How the data were processed

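The deposited table holds 1 linear intensity per probe set and array, 45101 probe sets on 12 arrays, made from biotinylated cRNA per the labels' protocols. The submitters' processing notes name MAS5 without settings. The authors' intensities were used as log2(value + 16), with no further normalisation. The number of arrays limits the precision. Groups and replicate numbers came from the titles, and probe set names from the platform annotation.

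Probe sets at or above the 40th percentile of mean log2 value (about 101 units) were tested, 27022 in all. Models were fitted in limma 3.58.1 (R 4.3.3) with lmFit and a trended eBayes, except slopes within 1 genotype, which were ordinary least-squares fits. Tests were two-sided, and p-values were adjusted over all tested probe sets after Benjamini and Hochberg at a threshold of 0.05. Genes in lists were represented by the brightest probe set. Slopes on the lymphocyte level and keratin balance were fitted with genotype. Steps were tested on simulated data. The members, lists and tests were chosen with earlier results of these data known. Named genes are all members, the 5 most like each of Cdh1, Cdh3, Ctnnb1 and Dsp, a set of pathway genes and those that passed. Of 63 pathway genes in 4 lists 61 were in the table used, and 1 further list is not reported here. The second brightest Dsp probe set was followed through the other settings after its values were seen. Figures were drawn with matplotlib 3.10.9.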

Additional observations from a re-analysis of the deposited data

Results flagged for a closer look

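Of 64 groups of 6 arrays examined, 7 held an array far from the others, and chance gives about 1 in 20. Among junction genes, control replicate 4 was low for Dsp by 2 probe sets, at 7362 by the brightest, with the next control array at 10055, and at 413 by the dimmest, with the next at 624. This array had the highest lymphocyte level, 11.40. Without it the log2 difference of the brightest Dsp probe set was -0.25 (with it, -0.16) and its slope on the lymphocyte level -0.0713 (with it, -0.0909). The dimmest tested Ctnna1 probe set was at 2688 on control replicate 1, with the next at 1845. A Dsg2 probe set was at 1489 on p190B replicate 1, with the next at 1145. Among array measures, the log2 Actb 3′ to 5′ ratio was 0.35 on control replicate 2, with the next at 0.29. The median log2 value was 7.82 on p190B replicate 5, with the next p190B array at 7.73, and 7.80 on control replicate 1, with the next control array at 7.71.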

How the results depend on the processing

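Over 29 other settings the Cdh1 difference kept its sign, from -0.66 (Actb ratio) to -0.38 (keratin covariate), and no pathway gene passed between genotypes. Other differences changed sign when single arrays were left out, at the farthest: Cdh3 to -0.13 (control replicate 4), Ctnnd1 to -0.03 (p190B replicate 1), Jup to -0.03 (p190B replicate 3), Dsc2 to -0.01 (control replicate 4) and Pkp2 to 0.04 (control replicate 6). That of Dsp ran from -0.35 to -0.04 over all settings. Of the junction probe sets, 1 passed between genotypes with the lymphocyte covariate and none in the other settings. The number of all probe sets passing between genotypes, 10, became 5 without a filter, 17 with a filter at the 60th percentile, 28 with quantile normalisation, 3 with equal medians, 3 without trend, 19 with array weights, 33 with the lymphocyte covariate, 6 with the keratin covariate, 0 with the Gapdh ratio, 1 with the Actb ratio and 5 when p190B replicates 1 and 3 were dropped. With both covariates it was 4 and with equal luminal markers 18, settings chosen after seeing the data. Leaving out 1 array gave 4 to 9. The junction probe sets passing on the lymphocyte level, 3, became 5 with quantile normalisation, 5 with array weights, 1 without trend, 0 with the Actb ratio, 0 when p190B replicates 1 and 3 were dropped, and 0 with both covariates. Leaving out 1 array gave 1 (p190B replicate 1, 2 or 3, or control replicate 4) to 5 (control replicate 5 or 6). None passed on keratin balance in any of 27 settings.

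Whether the replicate numbers pair the samples was examined. Deviations of same-numbered arrays correlated between -0.29 and 0.41, with 1 of 6 pairs above 0.1, and 1 of 6 arrays correlated best with its own number. That pair, replicate 4, had the highest lymphocyte level of each group (11.31 in p190B and 11.40 in control). So few pairs, on arrays that vary in lymphocyte content, cannot decide whether the numbers pair the samples. With the replicate block, 0 probe sets passed between genotypes and 0 junction probe sets on the lymphocyte level, where the slopes were -0.0935 (Cdh1), -0.0928 (the second brightest Dsp probe set) and -0.0906 (Ctnnd1). The Cdh1 difference was -0.48.

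Some slopes that did not pass changed sign. On the lymphocyte level these were Ctnnb1 (-0.00857 with quantile normalisation, -0.000414 with equal medians) and Dsg2 (0.00713 with the replicate block, 0.0282 with both covariates, -0.0449 to 0.00157 without 1 array, the highest without control replicate 4). On keratin balance with both covariates they were Cdh1 (-0.0357), Ctnna1 (-0.117), Ctnnb1 (0.0127), Jup (-0.0756) and the second brightest Dsp probe set (-0.0165). Ctnna1 gave -0.0724 when p190B replicates 1 and 3 were dropped and -0.0455 (p190B replicate 1) to 0.239 without 1 array. Ctnnb1 gave 0.00419 with quantile normalisation, 0.0146 with equal medians and 0.154 with the replicate block, where Dsc2 gave -0.319. The cause was not tested.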
